A study of Homo sapiens with 12 samples.

Results

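The BCL2 family decides whether a cell opens its outer mitochondrial membrane and dies by apoptosis. The 10 family genes described here were taken by symbol from the 57187 genes of the count table, and all 10 passed the filter on low counts. They are 3 anti-apoptotic genes (*BCL2*, *BCL2L1* and *MCL1*), 2 effectors (*BAX* and *BAK1*) and 5 BH3-only genes (*BCL2L11*, *BBC3*, *PMAIP1*, *BID* and *BAD*). RNA was sequenced from 12 libraries of 4 human cancer lines, of which MDA-MB-231 and HCC1954 come from breast cancer and OVCAR8 and SKOV3 from ovarian cancer. Each line gave 1 control library, 1 of cells transfected with wild-type SIVA (*SIVA-WT*) and 1 of cells transfected with SIVA carrying the D160N change (*SIVA-D160N*), in which an aspartate is replaced by an asparagine. The controls are called EV (empty vector) after the study, although the labels describe them as parental and untreated, so whether these libraries passed through transfection and hygromycin selection is not settled. The transfectants were stable and polyclonal, selected with hygromycin after transfection of a linearized vector, and all lines were grown in RPMI medium with serum.

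In a healthy cell the anti-apoptotic proteins hold the effectors BAX and BAK in check. BH3-only proteins respond to damage, starvation or lost growth signals, bind the anti-apoptotic proteins or the effectors, and so tip the balance towards pores in the mitochondrion, release of cytochrome c and activation of caspases. Cancer cells often survive through high levels of BCL-XL (the protein of *BCL2L1*) or MCL1, and SIVA is itself a pro-apoptotic protein that binds BCL-XL. Much of the family's control lies in protein stability, splicing and phosphorylation, none of which gene counts show. The counts also pool the long and short forms of *BCL2L1*, *MCL1* and *BCL2L11*, some of which act in opposite directions.

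Levels are given in CPM, the counts of a gene relative to the library total, with the total scaled by its TMM factor (a factor for the composition of the RNA). The libraries held 35791455 to 45890398 counts, so that 3 counts, the limit that a count of 0 allows, stand at 0.0664 to 0.0856 CPM (counting error only). Mitochondrial genes took 3.61% to 5.77% of the counts. *SIVA1*, the gene on the vectors, was at 28.1, 66.3 and 52.6 CPM in EV of MDA-MB-231, OVCAR8 and SKOV3 and higher in both transfectants of each. In HCC1954 it was at 0 counts in EV, and at 38.2 and 26.5 CPM in the *SIVA-WT* and *SIVA-D160N* libraries. The EV library of HCC1954 thus stands apart from the other controls, and the condition results were also computed without it. Lineage markers varied between the lines. Of the epithelial markers, *CDH1* (E-cadherin) reached 695 to 816 CPM in HCC1954 and at most 0.492 CPM in the other lines. *EPCAM* was at 206 to 248 CPM in HCC1954, 18.6 to 21.3 CPM in OVCAR8 and at most 2.31 CPM in the others. The keratins went otherwise. *KRT19* was highest in MDA-MB-231 (63.9 to 89.7 CPM, against 13.5 to 30.9 CPM in HCC1954). *KRT8* and *KRT18* were at 258.9 and 189.4 CPM or more in every line. The mesenchymal *VIM* was at 95.6 to 290 CPM in HCC1954 and at least 2932.8 CPM in the others. *PAX8* of the ovarian lineage was at 61.1 to 243 CPM in the ovarian lines and at most 3.43 CPM in the breast lines. *WT1*, of the same lineage, was at 5.55 to 8.06 CPM in HCC1954, 5.89 to 6.83 CPM in OVCAR8 and at most 1.11 CPM in SKOV3 and MDA-MB-231. Of the breast markers, *GATA3* was at 42.8 to 49.7 CPM in HCC1954 and at most 6.28 CPM in the other lines, *TRPS1* was counted in every line (7.02 to 47.1 CPM) and *TFAP2B* was at most 0.12 CPM in every library. Of the markers of other cell types, *PTPRC* (leukocytes) was at most 0.627 CPM, and *PECAM1* (endothelium) was at 32.6 to 62.8 CPM in HCC1954 and at most 1.81 CPM in the other lines. *COL1A1* (fibroblasts) was at 23.8 CPM in the EV library of SKOV3 against 407 and 504 CPM in its transfectants, at 187 to 340 CPM in OVCAR8 and at most 18.1 CPM in the breast lines, so the SKOV3 EV library too stands apart from its transfectants.

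The promoters of 9 of the 10 members were found in RefSeq (GRCh38.p14), from 250 bases before to 50 bases after the start. They were searched on both strands for the E-box CACGTG, for the CRE half-site TGACG, part of the sites bound by the ATF and CREB families, and for the GC box GGGCGG. Printed are *BBC3* (PUMA) and *PMAIP1* (NOXA), the BH3-only genes with the largest ratios between conditions, and *BAX*, an effector whose level varied little. Capitals mark the E-box and the CRE half-site on either strand, and the windows are chr19:47232618-47232917 (minus strand), chr18:59899746-59900045 (plus strand) and chr19:48954625-48954924 (plus strand).
BBC3: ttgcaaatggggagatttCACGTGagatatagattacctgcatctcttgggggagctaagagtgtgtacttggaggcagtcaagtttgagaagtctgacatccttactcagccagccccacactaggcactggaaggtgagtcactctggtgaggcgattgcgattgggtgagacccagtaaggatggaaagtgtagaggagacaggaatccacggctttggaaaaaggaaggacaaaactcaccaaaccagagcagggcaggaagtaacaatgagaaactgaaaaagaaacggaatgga
PMAIP1: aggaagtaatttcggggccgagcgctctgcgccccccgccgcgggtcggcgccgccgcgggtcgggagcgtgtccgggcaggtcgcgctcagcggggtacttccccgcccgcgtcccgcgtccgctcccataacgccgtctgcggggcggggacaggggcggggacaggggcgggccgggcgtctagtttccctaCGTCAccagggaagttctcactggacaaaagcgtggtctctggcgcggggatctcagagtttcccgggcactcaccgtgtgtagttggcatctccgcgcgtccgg
BAX: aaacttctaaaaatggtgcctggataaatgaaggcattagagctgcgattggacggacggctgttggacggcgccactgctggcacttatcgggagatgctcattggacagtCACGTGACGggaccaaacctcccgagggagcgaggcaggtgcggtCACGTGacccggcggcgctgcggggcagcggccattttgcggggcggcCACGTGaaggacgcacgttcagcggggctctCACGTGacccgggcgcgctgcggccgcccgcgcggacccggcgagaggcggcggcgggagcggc
The *BBC3* window held 1 E-box, its first base at position -232 from the start of that window, and no CRE half-site or GC box. Of its bases 48.0% were G or C. That start lies inside the annotated span of *BBC3*, whose upstream end, at 47232860, falls within the window. The position of the *BBC3* E-box is therefore counted from an inner start, not the outermost one. The E-box itself lies upstream of that outer end. The *PMAIP1* window held 1 CRE half-site at -55 and 4 GC boxes (71.3% G or C). The *BAX* window held 4 E-boxes, at -138, -93, -45 and -14, the first of them overlapping a CRE half-site at -134, and 2 GC boxes, at -52 and 9 (67.3% G or C). Over all 35116 promoter windows of the table, 7.26% held an E-box, 24.6% a CRE half-site and 45% a GC box. These matches are letters in a window, not sites shown to be bound.

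The members were first compared between the 4 lines. By edgeR's quasi-likelihood test on all 17211 genes tested, with a term for the line and one for the condition, 5 of the 10 members differed between lines, with a p-value adjusted by Benjamini-Hochberg (FDR) below 0.05 and a largest log2 difference of at least 1.5. Of all genes tested 53.9% did so, a share close to that of the members. An FDR quoted with a largest line difference is that of this test over the 4 lines. An FDR quoted for 2 named lines is that of their pair. The 3 libraries of a line differ in condition, and the labels do not say whether they came from separate cultures, so these p-values measure the spread between those libraries only.

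**Figure D1:**
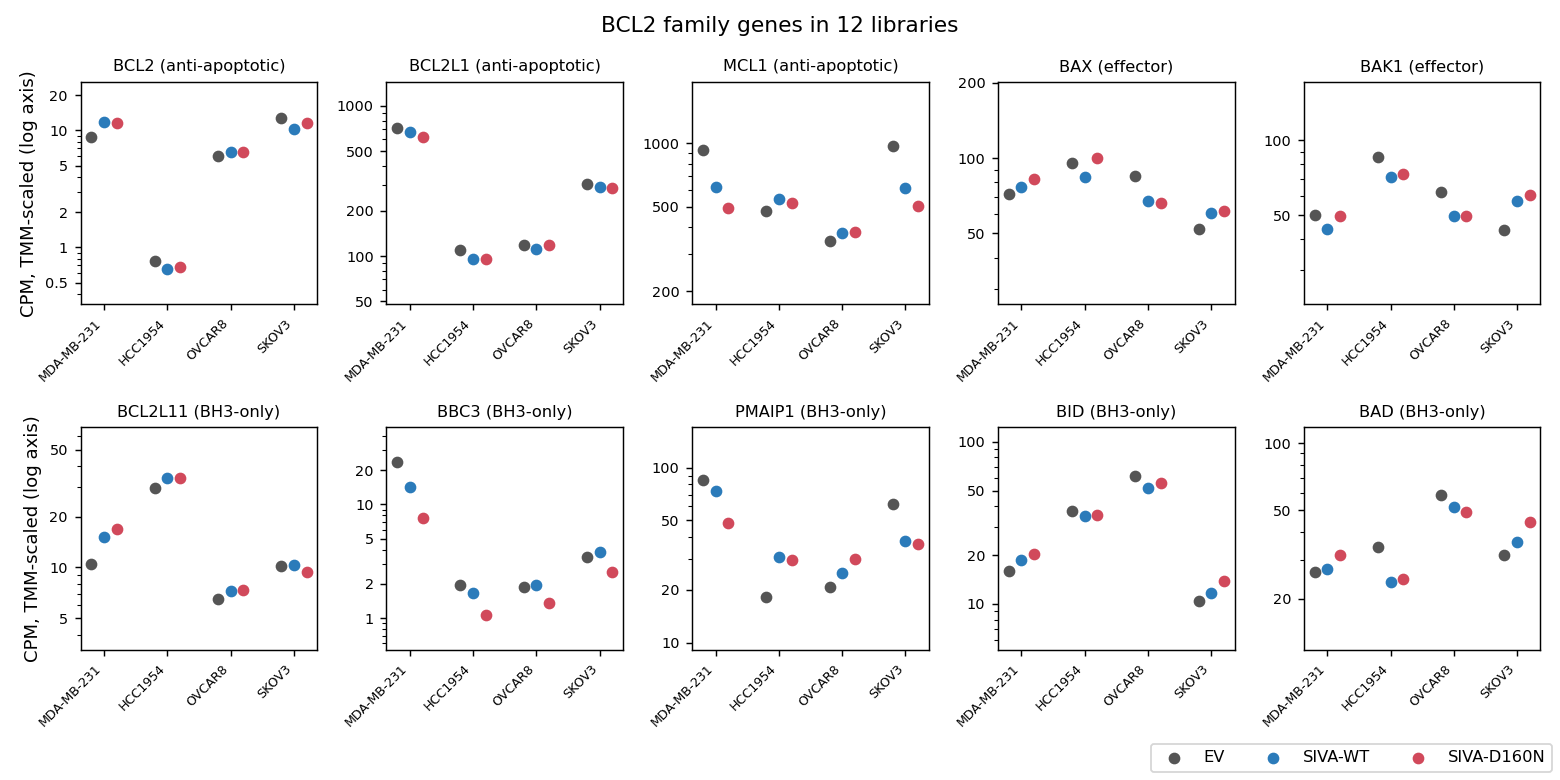
Level of the 10 members in each of the 12 libraries, in TMM-scaled CPM on log axes, with the 4 lines along each panel and the 3 conditions in color; each point is 1 library. *BCL2* in HCC1954 stayed at or under 0.768 CPM against at least 6.03 CPM in the other lines, and *BAX* and *BAK1* stayed within 51.9 to 101 CPM and 43.8 to 85.6 CPM.

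Among the anti-apoptotic genes, *BCL2* (ENSG00000171791; GRCh38.p14 chr18:63123346-63320090), the founding member of the family, had the widest range between lines. In the order EV, *SIVA-WT* and *SIVA-D160N*, it was at 8.83, 11.7 and 11.6 CPM in MDA-MB-231, at 0.768, 0.65 and 0.685 CPM in HCC1954, at 6.03, 6.57 and 6.57 CPM in OVCAR8 and at 12.9, 10.4 and 11.5 CPM in SKOV3. All 3 HCC1954 libraries lay below all others, with as few as 24 counts. Fitted, SKOV3 exceeded HCC1954 by 4.04 on the log2 scale (FDR 1.7e-08). OVCAR8 exceeded HCC1954 by 3.18 (standard error 0.20), while the neighbours SKOV3 and MDA-MB-231 overlapped and were not told apart (0.11, standard error 0.17, FDR 0.555).

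*BCL2L1* (ENSG00000171552; chr20:31664452-31723963) encodes BCL-XL, the partner that SIVA is known to bind. It was at 719, 672 and 623 CPM in MDA-MB-231, at 110, 95.9 and 95.5 CPM in HCC1954, at 118, 111 and 119 CPM in OVCAR8 and at 303, 288 and 285 CPM in SKOV3. MDA-MB-231 was the highest, SKOV3 came next, and the other two lay close together. MDA-MB-231 exceeded HCC1954 by 2.74 on the log2 scale (FDR 9.8e-10), and the libraries of OVCAR8 and HCC1954 did not overlap, though their difference was only 0.21 (FDR 0.0473).

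*MCL1* (ENSG00000143384; chr1:150574558-150579610), whose protein is short-lived and binds NOXA, was at 930, 617 and 493 CPM in MDA-MB-231, at 477, 542 and 523 CPM in HCC1954, at 346, 375 and 380 CPM in OVCAR8 and at 968, 614 and 503 CPM in SKOV3. The 2 highest values were the EV libraries of MDA-MB-231 and SKOV3. Its largest line difference was 0.87 on the log2 scale (FDR 0.0077), below the fold threshold. Per kilobase of the canonical transcript *MCL1* had the highest mean level of the members (143 CPM per kb), followed by *BCL2L1* (115) and *BAX* (94.7). *BCL2* was the lowest, at 1.07 CPM per kb. With all annotated exons as the length these ranks stayed the same, apart from *BAK1* and *BAD*, which changed places.

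The effectors, which form the pores, were among the steadiest members. *BAX* (ENSG00000087088; chr19:48954875-48961798) ranged over the 12 libraries from 51.9 CPM in SKOV3 EV to 101 CPM in HCC1954 *SIVA-D160N*, and its largest line difference was 0.69 on the log2 scale. *BAK1* (ENSG00000030110; chr6:33572552-33580276) ranged from 43.8 CPM in SKOV3 EV to 85.6 CPM in HCC1954 EV, and its largest line difference was 0.68. Both genes had an FDR under 0.05 in the test over the 4 lines (0.0020 and 0.0032) without reaching the fold threshold. Ranked by the range of their line means, *BAX* and *BAK1* stood at the percentiles 13 and 12.4 of all genes tested, *BCL2* at 81.2. The count ratio of *BAX* to *BCL2*, often taken as a simple index of readiness for apoptosis, ran from 4.04 in SKOV3 EV to 147 in HCC1954 *SIVA-D160N*. It was 125 to 147 in HCC1954 and at most 14.05 in the other lines, as the low *BCL2* there gives.

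Among the BH3-only genes, *BCL2L11* encodes BIM, which binds all anti-apoptotic members. *BCL2L11* (ENSG00000153094; chr2:111120914-111168445) was at 10.5, 15.1 and 16.9 CPM in MDA-MB-231, at 29.7, 33.8 and 33.7 CPM in HCC1954, at 6.52, 7.23 and 7.38 CPM in OVCAR8 and at 10.2, 10.3 and 9.46 CPM in SKOV3. HCC1954 was the highest in all of its libraries and exceeded OVCAR8 by 2.20 on the log2 scale (FDR 2.2e-07), so the line with the least *BCL2* had the most *BCL2L11*. The count ratio of *BCL2L1* to *BCL2L11* was 2.83 to 3.70 in HCC1954, 15.4 to 18.1 in OVCAR8, 27.99 to 30.19 in SKOV3 and 36.9 to 68.7 in MDA-MB-231.

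*BBC3* (ENSG00000105327; chr19:47220824-47232860) encodes PUMA, a BH3-only protein induced by stress. It was at 23.7, 14.4 and 7.56 CPM in MDA-MB-231, at 1.94, 1.65 and 1.06 CPM in HCC1954, at 1.89, 1.94 and 1.36 CPM in OVCAR8 and at 3.42, 3.79 and 2.54 CPM in SKOV3. Every MDA-MB-231 library lay above every other library, and in each line the *SIVA-D160N* library was the lowest. MDA-MB-231 exceeded HCC1954 by 3.23 on the log2 scale (FDR 5.3e-07), SKOV3 exceeded OVCAR8 by 0.91 (FDR 0.0058), and OVCAR8 and HCC1954 overlapped (0.19, FDR 0.522).

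*BID* (ENSG00000015475; chr22:17734138-17774665), which caspase-8 cleaves to link death receptors to the mitochondrion, was at 16.0, 18.7 and 20.3 CPM in MDA-MB-231, at 37.2, 34.9 and 35.5 CPM in HCC1954, at 61.2, 51.7 and 55.9 CPM in OVCAR8 and at 10.5, 11.7 and 13.8 CPM in SKOV3. No 2 lines overlapped, and OVCAR8 exceeded SKOV3 by 2.24 on the log2 scale (FDR 7.8e-08). *PMAIP1* (ENSG00000141682; chr18:59899996-59904305) encodes NOXA, which binds MCL1. It was at 84.6, 73.0 and 48.1 CPM in MDA-MB-231, at 18.3, 30.9 and 29.6 CPM in HCC1954, at 20.9, 25.1 and 30.2 CPM in OVCAR8 and at 61.9, 37.9 and 36.4 CPM in SKOV3. Its largest line difference was 1.41 on the log2 scale (FDR 0.0012), just under the fold threshold.

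*BAD* (ENSG00000002330; chr11:64269828-64284704), which survival signals inactivate by phosphorylation, ranged from 23.7 CPM in HCC1954 *SIVA-WT* to 58.7 CPM in OVCAR8 EV. All OVCAR8 libraries lay above all others, with a largest line difference of 0.95 (FDR 0.00049). The annotated span of *BAD* overlaps that of *GPR137*, which had 86.6% as many counts as *BAD* over the 12 libraries. How strand was used in counting is not stated, so the *BAD* values are uncertain to that extent. The pseudogene *BAK1P1* held 27 counts in all, 0.097% of those of *BAK1*.

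Over the 6 pairs of lines, 14 of the 60 combinations of member and pair passed both thresholds. HCC1954 vs MDA-MB-231 gave 3 members (*BCL2*, *BCL2L1* and *BBC3*, all lower in HCC1954) against 30.6% of all genes. OVCAR8 vs MDA-MB-231 gave 3 (*BCL2L1* and *BBC3* lower, *BID* higher in OVCAR8) against 24.2%, and SKOV3 vs MDA-MB-231 gave 1 (*BBC3*, lower in SKOV3) against 27.8%. OVCAR8 vs HCC1954 gave 2 (*BCL2* higher, *BCL2L11* lower in OVCAR8) against 30.6%. SKOV3 vs HCC1954 gave 4 (*BCL2* and *BCL2L1* higher, *BCL2L11* and *BID* lower in SKOV3) against 29.3%, and SKOV3 vs OVCAR8 gave 1 (*BID*, lower in SKOV3) against 28.1%. MDA-MB-231 thus combined high *BCL2L1* with high *BBC3*, and HCC1954 low *BCL2* with high *BCL2L11*.

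*SIVA-D160N* was compared with EV to ask what the mutant protein changes. None of the 10 members passed both thresholds (edgeR's quasi-likelihood test), against 0.00581% of all genes, and 2 members, *BBC3* and *MCL1*, had an unadjusted p-value under 0.05, against 14.2%. The median log2 fold change of the members was -0.02 and that of all genes -0.01. DESeq2 and limma-voom also called 0 members at these thresholds. Each line gave 1 library per condition, so the 4 lines are the replicates (n = 4). In bulk RNA, a change in the number of expressing cells and a change in RNA per cell cannot be told apart.

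*BBC3* had the largest fitted difference of the members, at -0.91 on the log2 scale (standard error 0.21, 0.532-fold, FDR 0.154 by edgeR's quasi-likelihood test, rank 134 of 17211 by p-value). It was lower in *SIVA-D160N* than in EV in 4 of 4 lines, and was the 1 member of 10 with the same direction in every line, against 16.0% of all genes. This was not particular to *BBC3*. Of the 11 other family genes tested, 2 BH3-only genes (*BMF* and *BIK*) were also lower in all 4 lines, *BIK* at 6 and 3 counts in MDA-MB-231. Within MDA-MB-231 it had 311 counts against 1073 in EV, a ratio of 0.318 (95% counting interval 0.280 to 0.362). HCC1954 gave 0.544 (0.358 to 0.811), OVCAR8 gave 0.719 (0.492 to 1.05) and SKOV3 gave 0.742 (0.567 to 0.969). The OVCAR8 interval includes 1, and the intervals cover counting error within a pair of libraries, not the spread of cultures. With wider sets of genes or with DESeq2, the FDR of *BBC3* was 0.0101, 0.0142 and 0.0108 (all genes with a count, the genes of the CPM table, DESeq2), and its lowest and highest FDR over all alternatives were 0.0101 and 1. In each of these 3 fits the log2 value stayed under the fold threshold. Without MDA-MB-231 the value was -0.59 (FDR 0.390), and without the HCC1954 EV library -0.92 (FDR 0.273).

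Within single lines, *BBC3* was the only member whose *SIVA-D160N* and EV libraries differed 2-fold or more, and only in MDA-MB-231. There 6.82% of all genes did so, against 10.2% in HCC1954, 3.51% in OVCAR8 and 8.74% in SKOV3. Between *SIVA-WT* and EV 0 members reached 2-fold in any line, where 4.57% of all genes did in MDA-MB-231, 4.49% in HCC1954, 3.16% in the OVCAR8 libraries and 5.79% in SKOV3.

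*MCL1* and *PMAIP1* split the lines in the same way. The signs of this split were not particular to them. *HUWE1*, *USP9X* and *FBXW7*, from the list of upstream regulators described below, had the same signs with smaller log2 ratios. *BID*, *BAD* and *BOK* had the reverse signs. The share of all genes with either pattern is not given here. *MCL1* in *SIVA-D160N* was 0.530-fold of EV in MDA-MB-231 (95% counting interval 0.521 to 0.539) and 0.519-fold in SKOV3 (0.511 to 0.528), but 1.10-fold in HCC1954 (1.08 to 1.12) and 1.10-fold in OVCAR8 (1.07 to 1.13). *PMAIP1* was 0.569-fold in MDA-MB-231 (0.539 to 0.601) and 0.589-fold in SKOV3 (0.552 to 0.629), but 1.62-fold in HCC1954 (1.47 to 1.78) and 1.45-fold in OVCAR8 (1.32 to 1.59). Across the lines these values gave -0.41 for *MCL1* (standard error 0.18, FDR 0.341) and -0.12 for *PMAIP1* (standard error 0.25, FDR 0.862) on the log2 scale. Without MDA-MB-231 the *MCL1* value was -0.24, without SKOV3 -0.22 and without HCC1954 or OVCAR8 -0.59, and the FDR was over 0.05 in each. *PMAIP1* without SKOV3 was at 0.13. In SKOV3 these values rest on the EV library with the low *COL1A1*, whose part in the result was not tested. Both sides of the split hold a breast line and an ovarian line. Both also hold a line with high *ERBB2*, which was at 5736 to 12170 CPM in HCC1954 and SKOV3 and at most 78.1 CPM in the other lines. *ZEB1* was at 73.8 to 108 CPM in MDA-MB-231 and SKOV3 and at most 33.6 CPM in HCC1954 and OVCAR8. *EPCAM* was at most 2.31 CPM in the former lines and at least 18.6 CPM in the latter. Whether any of these traits bears on the split was not tested. The difference between these pairs of lines was seen in the data and was not tested.

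**Figure D2:**
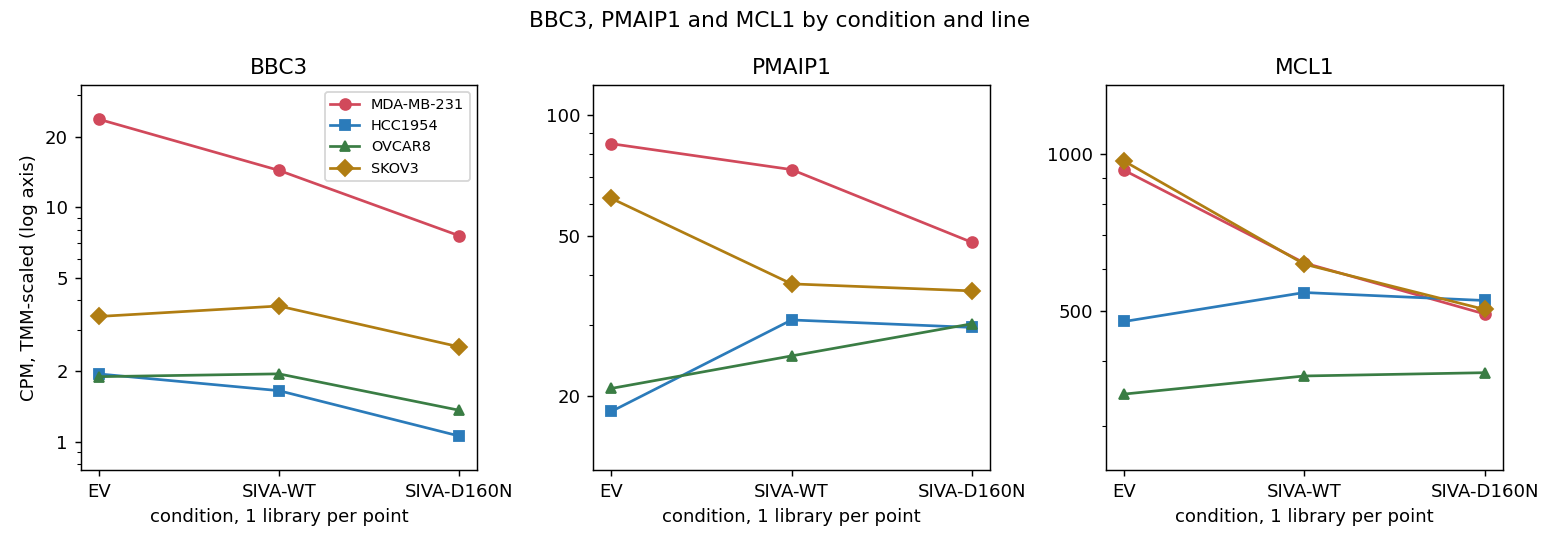
*BBC3*, *PMAIP1* and *MCL1* in TMM-scaled CPM (log axes) against condition, with 1 library per point and 1 connected trace per line. *BBC3* in *SIVA-D160N* is the lowest point of all 4 traces, while *PMAIP1* and *MCL1* go from EV to *SIVA-D160N* downwards in MDA-MB-231 and SKOV3 and upwards in HCC1954 and OVCAR8.

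The other members had small fitted differences between *SIVA-D160N* and EV, some of them averages of lines that went in opposite directions. *BCL2L11* was at 0.24 on the log2 scale (standard error 0.13, FDR 0.431), with 0.69 in MDA-MB-231, 0.18 in both HCC1954 and OVCAR8, and -0.11 in SKOV3. *BCL2L1* was at -0.12 (standard error 0.075, FDR 0.494). *BID* was at 0.12 (standard error 0.11, FDR 0.634), *BCL2* at 0.06, *BAX* at 0.03, *BAK1* at -0.03 and *BAD* at -0.00, with FDR values from 0.634 to 0.999. *BAD* hid opposite values, at -0.47 in HCC1954 and -0.27 in OVCAR8 against 0.25 in MDA-MB-231 and 0.51 in SKOV3, the reverse of the split of *MCL1* and *PMAIP1*. *BAK1* ran from -0.32 in OVCAR8 to 0.46 in SKOV3. Between the same lines *BAX* ran from -0.35 to 0.24 and *BID* from -0.13 to 0.40.

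**Figure D3:**
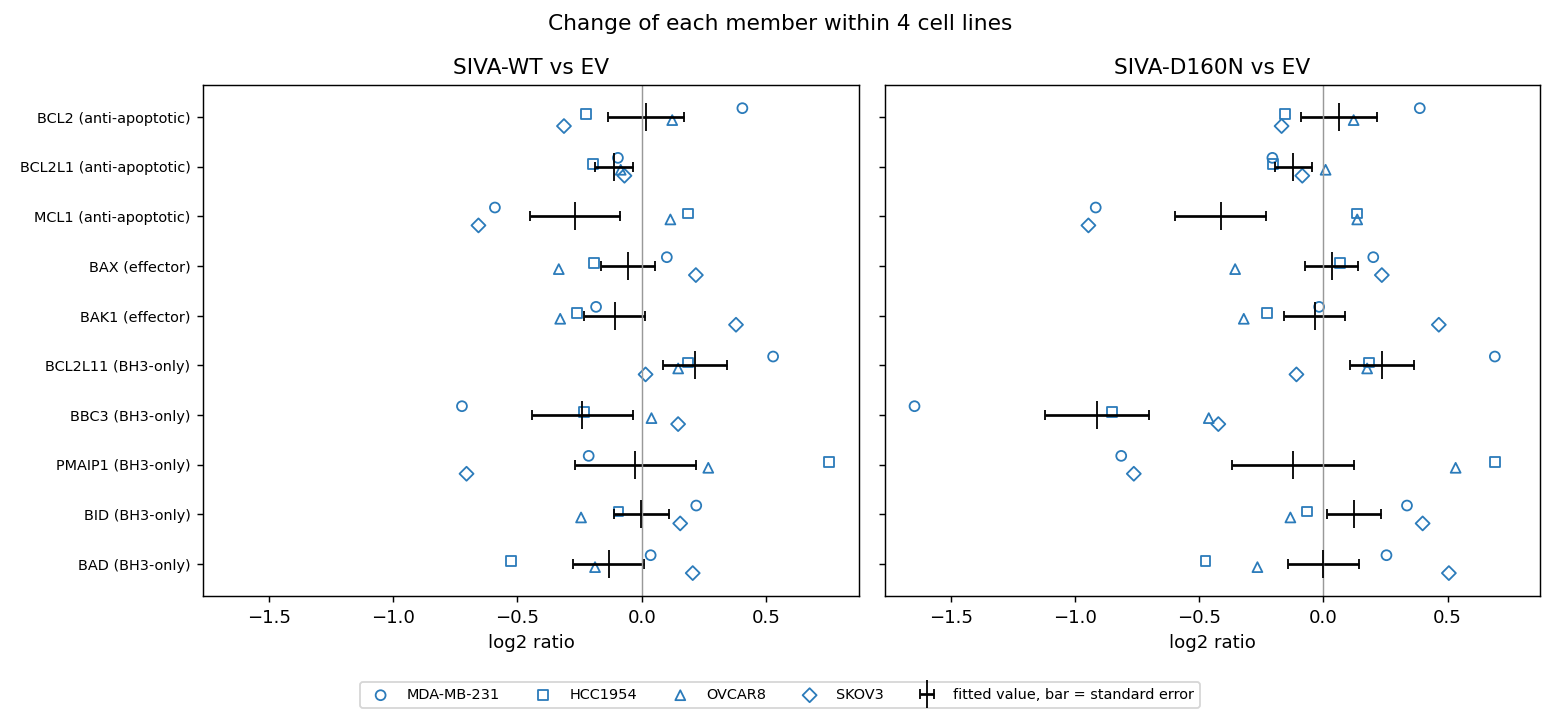
Log2 ratio of each member to EV, for *SIVA-WT* (left) and *SIVA-D160N* (right); open symbols are single lines (1 library over 1 library), and the vertical mark with its bar is the fitted value over the 4 lines with its standard error. *BBC3* in *SIVA-D160N* lies left of 0 in every line, from -1.64 in MDA-MB-231 to -0.42 in SKOV3, and both panels share the EV libraries.

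*SIVA-WT* was compared with EV to ask what more of the normal protein changes. None of the 10 members passed both thresholds, against 0% of all genes, and 0 members had an unadjusted p-value under 0.05, against 2.54%. DESeq2 and limma-voom called 0 members as well. The median log2 fold change of the members was -0.08 and that of all genes -0.01. In 2 of the 10 members the direction was shared by all 4 lines, against 9.88% of all genes: *BCL2L1* was lower in each (-0.11, standard error 0.075) and *BCL2L11* higher in each (0.21, standard error 0.13), both with an FDR of 1.00. *BBC3* was at -0.24 (standard error 0.20), lower in MDA-MB-231 (-0.72) and HCC1954 (-0.23) and at 0.04 and 0.15 in OVCAR8 and SKOV3. *MCL1* was at -0.27 (standard error 0.18), with -0.59 in MDA-MB-231, -0.66 in SKOV3, 0.18 in HCC1954 and 0.12 in OVCAR8. *PMAIP1* ran from -0.70 in SKOV3 to 0.75 in HCC1954.

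*SIVA-D160N* was compared with *SIVA-WT* to ask what the mutation adds. Again none of the 10 members passed both thresholds, against 0% of all genes (edgeR's quasi-likelihood test, and 0 members by DESeq2 and limma-voom), and 1 member, *BBC3*, had an unadjusted p-value under 0.05, against 6.88%. *BBC3* was lower in *SIVA-D160N* in 4 of 4 lines, at -0.67 on the log2 scale (standard error 0.21, 0.628-fold, FDR 0.719). The lines gave 0.526-fold in MDA-MB-231 (95% counting interval 0.457 to 0.605), 0.641-fold in HCC1954 (0.418 to 0.966), 0.700-fold in OVCAR8 (0.481 to 1.01) and 0.670-fold in SKOV3 (0.519 to 0.861). This comparison does not use the EV libraries, but it shares the *SIVA-D160N* libraries with the one above. In all, 3 of the 10 members had 1 direction in 4 lines, against 23.8% of all genes: *BBC3*, and *BAK1* and *BID*, which were higher by 0.07 (standard error 0.12) and 0.13 (standard error 0.11). The members' median was 0.03 and that of all genes -0.00.

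The change from EV to *SIVA-D160N* was also compared between ovarian and breast lines in an interaction term. None of the 10 members had an FDR under 0.05 (edgeR's quasi-likelihood test, and 0 by DESeq2 and limma-voom), against 0.00581% of all genes. *BBC3* had a difference of 0.88 (ovarian minus breast, standard error 0.35, unadjusted p = 0.034, FDR 0.971), and it was the 1 member with an unadjusted p-value under 0.05. For *MCL1* and *PMAIP1*, whose split runs across the tissues, the differences were -0.01 (standard error 0.41) and -0.06 (standard error 0.51).

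How the members varied together within the lines was described by Pearson's r of the deviations of log2 CPM from the mean of the line, over 12 libraries. The points share lines and libraries, so r is a description without a test. *MCL1* went with *PMAIP1* (r = 0.821) and against *BID* (r = -0.909), and *PMAIP1* went against *BAD* (r = -0.911). *PMAIP1* also went against the effectors *BAK1* (r = -0.774) and *BAX* (r = -0.719). *BAK1* went with *BAD* (r = 0.820), and *BCL2L11* went against *BBC3* (r = -0.762). *BCL2L1* and *BBC3* were at r = 0.686 within lines and at 0.934 over the 12 libraries without removing line means.

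**Figure D4:**
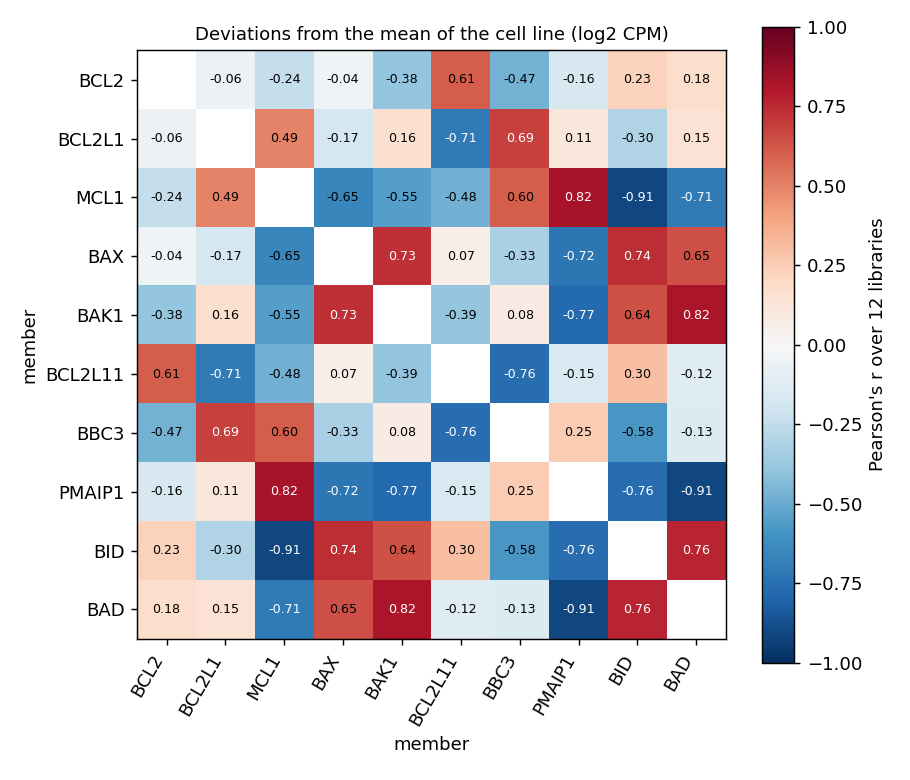
Pearson's r between members over 12 libraries, computed on log2 CPM after subtracting the mean of each line, with the value printed in each cell and the scale from -1 to 1 in color. *MCL1* and *PMAIP1* form one group (0.82) that is set against *BID*, *BAD*, *BAX* and *BAK1*. The values run from -0.91 (*MCL1* with *BID* and *PMAIP1* with *BAD*) to -0.55 (*MCL1* with *BAK1*).

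The genes most like a member were sought among all non-member genes tested, by Pearson's r of log2 CPM over the 12 libraries, for the 3 members with the widest range of line means. *BCL2* was most like *PRKCDBP* (0.997), *LINC00472* (0.996) and *SNX19* (0.995). *BBC3* was most like *LPIN1* (0.981), *MAP2K5* (0.979) and *FRS3* (0.974). *BCL2L1* was most like *SP100* (0.995), *POLR3GL* (0.993) and *TRAM2-AS1* (0.993). With 4 lines and 3 libraries each, such values mostly follow the line means.

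Of 13 other BCL2 family genes, 11 were tested. *BCL2L10* and *BCL2L14* had at most 34 and 27 counts in any library. None of the 11 passed both thresholds between conditions (edgeR's quasi-likelihood test). At an unadjusted p-value below 0.05 there was 1 in *SIVA-D160N* vs EV (14.2% of all genes), and there were 2 in *SIVA-D160N* vs *SIVA-WT* (6.88%) and 0 in *SIVA-WT* vs EV (2.54%). In *SIVA-D160N* vs EV, *BNIP3*, a BH3-like gene of mitophagy, was at 0.33 on the log2 scale (standard error 0.14, FDR 0.325) and its relative *BNIP3L* at -0.22 (FDR 0.430). In *SIVA-D160N* vs *SIVA-WT*, *BMF*, a BH3-only gene tied to detachment from the matrix, was at -0.49 (standard error 0.15, FDR 0.719) and lower in 4 of 4 lines, and *BNIP3L* was at -0.27 (FDR 0.725). In HCC1954 *BMF* was at 60.1 and 37.3 CPM in these conditions, but at most 1.02 CPM in MDA-MB-231 and OVCAR8.

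Between lines, 6 of these 11 genes passed both thresholds, against 53.9% of all genes. The widest differences stood in genes that some lines barely expressed. *BCL2A1*, an anti-apoptotic relative, had 44 to 82 counts in OVCAR8 and at most 1 count in the HCC1954 and SKOV3 libraries. *BMF* was at 37.3 to 60.1 CPM in HCC1954 and at most 0.578 CPM in OVCAR8. *BIK*, another BH3-only gene, was at 4.51 to 5.09 CPM in HCC1954 and at most 0.133 CPM in MDA-MB-231. *BNIP3L* had a largest line difference of 2.18 on the log2 scale (FDR 3.8e-08) and *BNIP3* one of 2.25 (FDR 1.2e-06).

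Of the 10 genes of cytochrome c release and the apoptosome, the complex that activates caspase-9, 0 passed between conditions (edgeR's quasi-likelihood test). In *SIVA-D160N* vs EV, 2 of the 10 had an unadjusted p-value under 0.05, against 14.2% of all genes, and both were higher: *APAF1*, the scaffold of the apoptosome, at 0.28 (standard error 0.11, FDR 0.305), and *CYCS*, cytochrome c, at 0.26 (standard error 0.11, FDR 0.318). Between lines 5 of the 10 passed, against 53.9% of all genes. *CYCS* had the largest line difference among them, at 2.43 on the log2 scale (FDR 9.3e-08), with 58.8 to 79.0 CPM in SKOV3 and 354 to 415 CPM in OVCAR8. *VDAC3*, a channel of the outer membrane, differed by 1.85, *HTRA2*, a released protease, by 1.58 and *CASP9* by 1.52.

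Of 10 regulators that act upstream of the members, 0 passed between conditions, and 4 had an unadjusted p-value under 0.05 in *SIVA-D160N* vs EV, all lower, against 14.2% of all genes in either direction. The same 4 were lower in all 4 lines, where 16.0% of all genes had 1 direction. The list was chosen with earlier results of these data known, and some of its genes share a pathway. Its shares therefore cannot be weighed against those of all genes. *ATF4*, the transcription factor of the integrated stress response, was at -0.38 (standard error 0.092, FDR 0.154). *TRIB3* and *DDIT3* (CHOP), which lie downstream of ATF4, were at -1.01 (standard error 0.35, FDR 0.252) and -0.81 (standard error 0.28, FDR 0.255). *DDIT3*, a known activator of *BBC3*, was in MDA-MB-231 at 103, 65.9 and 21.5 CPM in EV, *SIVA-WT* and *SIVA-D160N*, where *BBC3* also had its widest range. *TRIB3* was at 331, 156 and 43.1 CPM in the same libraries. Both had their widest ratio in MDA-MB-231. The log2 ratio of *TRIB3* was -2.94 there against -0.78, -0.31 and -0.23 in HCC1954, OVCAR8 and SKOV3, and that of *DDIT3* was -2.26 against -0.33, -0.11 and -0.60. In *SIVA-WT* vs EV, *ATF4* was at -0.26 (unadjusted p = 0.017, FDR 1.00).

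Between lines 4 of the 10 regulators passed, against 53.9% of all genes, among them *FOXO3*, *DDIT3* and *TRIB3*. *FOXO3*, a known activator of *BCL2L11* and *BBC3*, was at 9.94 to 13.0 CPM in OVCAR8 and at 48.6 to 87.7 CPM in the other lines, and OVCAR8 was also the line with the least *BCL2L11*. HCC1954, with the most *FOXO3* (81.1 to 87.7 CPM), had the lowest mean level of *BBC3* (overlapping OVCAR8) and the most *BCL2L11*. These are levels in single lines, and whether the regulators set those of the members was not tested.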

How the data were processed

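The authors made stranded mRNA libraries from each line and condition, aligned the reads to GRCh38 with STAR (2.5.3a in the submitters' processing notes) and deposited the resulting gene counts without normalization. The annotation release and the strand setting of the counting are not given in the sources used here. The authors also deposited a table of CPM values, a TMM-scaled signal per gene for 34525 genes, used here only for its list of genes. Every column matched a library (0 without one).

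The fit used edgeR 4.0.16 in R 4.3.3 (glmQLFit and glmQLFTest, TMM, filterByExpr by condition) on all 12 libraries, with terms for line and condition. Of 57187 genes, 17211 were tested. A gene was called at an FDR below 0.05 with a log2 fold change of 1.5 or more in either direction, and in the interaction at the FDR alone. The line was the replicate block, since libraries of one line share their cells: deviations from the condition means correlated at 0.929 to 0.968 within a line and at -0.433 to -0.191 between lines. Subtracting the mean over the lines by itself makes the between-line values negative, so their sign is no evidence for the block. Log2 ratios within a line used a prior count of 2, and fold intervals are exact at 95%. Exon lengths came from GENCODE (lifted to GRCh37), gene positions from RefSeq (GRCh38.p14). The fit was tested on simulated data.

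The members, the other gene lists and the tests were chosen with earlier results of these data known. Named are all members, from each other list the genes called (up to 4) or the 2 with the smallest p in a comparison, and *SIVA1*. Genes standing in counts of 5 or fewer and the markers quoted were chosen after their values were seen. So were the levels of *DDIT3*, *TRIB3* and *FOXO3* by line, and the genes said to share or reverse the split of *MCL1*. Alternatives were DESeq2 1.42.0, limma-voom (limma 3.58.1), RLE scaling, wider gene sets, single thresholds, no block, and libraries left out. Figures used matplotlib 3.10.9 in Python 3.11.15. The values of 1 upstream regulator are not reported here, although it is part of the counts for that list.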

Additional observations from a re-analysis of the deposited data

How the results depend on the processing

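Of the counts of members called, those between conditions stayed at 0 under every alternative run. These included DESeq2, limma-voom, FDR alone, an unadjusted p-value with the same fold, each line left out, and the fit with no replicate block. Where the fold threshold was kept, this 0 says little about the test. The widest fitted value of a member, *BBC3* in *SIVA-D160N* vs EV, was -0.91 on the log2 scale, short of that threshold. With a line or library left out it was -1.08 at the widest. FDR alone was run with the main fit. With DESeq2 or the wider gene sets, *BBC3* in that comparison had an FDR below 0.05 (lowest 0.0101) and failed on the fold only. At FDR alone, 10 members differed between lines in place of 5, and 45 combinations of member and line pair in place of 14. Most genes did so too. In the test over the 4 lines *SIVA1*, at rank 15575 of 17211 by p-value, still had an FDR of 0.0192. In HCC1954 vs MDA-MB-231 it had 0.0472 at rank 12128. These counts at FDR alone are therefore no result about the members. At an unadjusted p-value, 1 member (*BBC3*) passed the interaction in place of 0, at rank 598 of 17211 genes, which does not set the members apart. Leaving out the libraries of 1 condition, or the HCC1954 EV library, gave 5 to 6 members and 12 to 16 combinations between lines. The shares of all genes in these fits are not given here, so the counts are no result about the members. *PMAIP1* was the added member without the *SIVA-D160N* libraries (1.77 on the log2 scale).

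The fitted values of *BBC3* and *MCL1* kept their direction in all 3 condition comparisons under every alternative run. Without 1 line or library, *BBC3* ranged from -1.08 to -0.59 in *SIVA-D160N* vs EV, from -0.73 to -0.57 in *SIVA-D160N* vs *SIVA-WT* and from -0.37 to -0.01 in *SIVA-WT* vs EV. Small values of other members changed sign. With libraries left out, *SIVA-WT* vs EV ranged from -0.13 to 0.15 for *BCL2*, from -0.26 to 0.23 for *PMAIP1*, from -0.14 to 0.05 for *BAX*, from -0.07 to 0.10 for *BID* and from -0.23 to 0.02 for *BAD*. *SIVA-D160N* vs EV ranged from -0.06 to 0.16 for *BCL2*, from -0.36 to 0.13 for *PMAIP1*, from -0.03 to 0.17 for *BAX*, from -0.19 to 0.07 for *BAK1* and from -0.17 to 0.16 for *BAD*. *SIVA-D160N* vs *SIVA-WT* ranged from -0.05 to 0.02 for *BCL2L1*, from -0.03 to 0.07 for *BCL2L11* and from -0.24 to 0.06 for *PMAIP1*. By processing alone, *BID* in *SIVA-WT* vs EV was 0.00 with RLE or all genes and 0.01 with the genes of the CPM table, and *BAD* in *SIVA-D160N* vs EV was 0.01 with the genes of the CPM table or limma-voom. Between the ends of these ranges, the sign also changed for *BCL2* in *SIVA-WT* vs EV without OVCAR8 (-0.02), for *BID* there without HCC1954 (0.03), and in *SIVA-D160N* vs EV for *PMAIP1* (0.11) and *BAX* (-0.02) without MDA-MB-231, for *BAK1* without HCC1954 (0.03) and for *BAD* without OVCAR8 (0.09). The cause of these changes was not tested. With 37 counts at the lowest, *BBC3* limits what depth can show in HCC1954 and OVCAR8.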
